A study of Mus musculus with 4 samples.

Results

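The genes described here are 39 genes of DNA replication and repair, out of the 32285 genes listed in the deposited matrices. They were taken from a list of names, chosen with earlier results of these data known, and not by a threshold on a measured value. The genes were read one by one in 4 single-cell libraries. The cells were cerebellar cells of E14.5 mouse embryos (E, embryonic day), sorted for tdTomato (tdT). The 2 control libraries carried Atoh1-Cre/+ and R26LSL-tdT/+. The 2 En1/2 CKO (conditional knockout) libraries carried these alleles together with En1lox/lox and En2lox/lox, floxed alleles of the engrailed homeobox genes. Atoh1-Cre thus acted in both groups, and only cells in which it had switched on tdTomato, and their descendants, entered the sort. Embryos were pooled for each library, so n counts pooled libraries, and a p-value measures only the spread between them.

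To copy its DNA once per cycle, a cell loads the MCM helicase at origins with ORC, Cdc6 and Cdt1, activates it with Cdc45 and GINS, and copies both strands with DNA polymerases held by the sliding clamp PCNA. Ribonucleotide reductase and thymidylate synthase supply the nucleotides, and chromatin assembly and maintenance methylation follow behind the fork. Many of these genes are transcribed before and during S phase under E2F factors. In the embryonic cerebellum, granule cell progenitors express Atoh1 and divide, and their daughters switch to Neurod1, leave the cycle and become neurons. The excitatory neurons of the cerebellar nuclei also arise from Atoh1-expressing cells and are postmitotic.

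The promoters of the members with the largest and the smallest difference between the cell classes compared below show which of them carry an E2F sequence near the start site. They are RefSeq windows of 300 bases on GRCm38.p6, from 250 bases before to 50 bases after the annotated start. The E2F search used 4 forms of the sequence on either strand, and matches are in capitals. All matches in the windows printed here are to TTTGGCGC or TTTCGCGC, on one strand or the other. Mcm5 (a subunit of the MCM helicase; chr8:75109259-75109558, plus strand) and Mcm6 (another subunit; chr1:128359656-128359955, minus strand) are among the members with the largest difference and hold matches, and so is Chaf1b (a subunit of the chromatin assembly factor CAF-1; chr16:93883651-93883950, plus strand), whose window holds none. Orc6 (a subunit of the origin recognition complex; chr8:85299382-85299681, plus strand) had the smallest difference and no match. Dnmt1 (the maintenance DNA methyltransferase; chr9:20952574-20952873, minus strand) had the next smallest, and the last of its 3 windows holds matches.
Mcm5: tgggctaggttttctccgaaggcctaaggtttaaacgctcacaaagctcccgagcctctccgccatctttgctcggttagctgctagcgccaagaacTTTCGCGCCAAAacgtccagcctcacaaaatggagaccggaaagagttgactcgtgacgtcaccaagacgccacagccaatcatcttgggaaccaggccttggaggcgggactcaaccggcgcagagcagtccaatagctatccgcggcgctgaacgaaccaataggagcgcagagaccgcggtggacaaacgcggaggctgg
Mcm6: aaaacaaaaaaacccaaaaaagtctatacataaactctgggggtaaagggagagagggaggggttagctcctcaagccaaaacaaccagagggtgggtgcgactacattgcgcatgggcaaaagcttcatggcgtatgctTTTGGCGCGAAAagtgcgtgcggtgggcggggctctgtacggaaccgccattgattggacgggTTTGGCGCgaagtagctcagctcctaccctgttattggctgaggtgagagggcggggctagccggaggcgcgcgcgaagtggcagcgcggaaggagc
Chaf1b: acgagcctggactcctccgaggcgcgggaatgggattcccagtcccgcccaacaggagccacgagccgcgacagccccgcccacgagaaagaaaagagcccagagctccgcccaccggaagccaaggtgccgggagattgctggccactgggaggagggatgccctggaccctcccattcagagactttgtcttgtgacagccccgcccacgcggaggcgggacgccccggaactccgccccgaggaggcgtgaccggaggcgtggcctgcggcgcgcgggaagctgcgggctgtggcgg
Orc6: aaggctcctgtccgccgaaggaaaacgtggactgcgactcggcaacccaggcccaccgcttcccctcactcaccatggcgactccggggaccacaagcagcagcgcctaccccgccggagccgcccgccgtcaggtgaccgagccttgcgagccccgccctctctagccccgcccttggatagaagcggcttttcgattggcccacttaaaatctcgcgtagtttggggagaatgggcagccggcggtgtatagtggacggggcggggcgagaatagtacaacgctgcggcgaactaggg
Dnmt1: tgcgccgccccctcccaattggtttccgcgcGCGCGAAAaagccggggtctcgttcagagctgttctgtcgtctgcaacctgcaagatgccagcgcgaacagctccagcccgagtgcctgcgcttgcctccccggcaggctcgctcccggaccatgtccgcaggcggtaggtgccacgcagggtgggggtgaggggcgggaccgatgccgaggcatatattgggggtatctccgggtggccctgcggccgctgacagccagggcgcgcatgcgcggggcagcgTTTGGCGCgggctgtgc

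In Mcm5 and in Mcm6 a pair of matches on opposite strands overlap by 4 bases and form a run of 12, which starts 153 bases before the start site in Mcm5 and 110 bases before it in Mcm6. A window was present for 33 of the 39 members. Of these, 14 (42.4%) held at least 1 match to any of the 4 E2F forms, against 2.6% of the 27025 genes searched. The 14 were Mcm3, Mcm5, Mcm6, Mcm7, Orc1, Cdc6, Cdt1, Gins3, Rfc3, Lig1, Pold1, Pola1, Uhrf1 and Dnmt1. The CCAAT box, searched on both strands, was in 66.7% of the members with a window and 41.1% of all genes. TTTGAA, the cell cycle genes homology region bound in many mitotic genes, was in 15.2% and 20.2%. A match is only a run of letters in this window, and no factor was measured at it.

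Unique molecular identifiers (UMIs, counts of captured transcripts) totalled 21351661 and 14998150 in control 1 and 2 and 27138010 and 33709450 in CKO 1 and 2. They were read at the 3′ end of the transcript, so they do not grow with its length and levels are not divided by it. A cell was kept if it had 500 or more genes, 1000 or more UMIs and no more than 10% of UMIs from mitochondrial genes, which left 2007 to 3931 cells per library. No pair of libraries shared more than 6 barcodes among the kept cells. Of the deleted genes, En2 stood at 136 and 167 CPM (UMIs of the gene per 1000000 UMIs) in kept cells of control 1 and 2 and at 29.0 and 19.8 in CKO 1 and 2. En1 stood at 238, 382, 150 and 253 CPM, with the groups overlapping, and which part of the transcript these 3′ counts come from is not given. Kept cells were shallower in the controls (median 2734 and 2122 UMIs) than in the CKO libraries (5352 and 5544), with more mitochondrial UMIs (median 5.53% and 5.66% against 3.97% and 2.66%). No label names a batch, so genotype and preparation cannot be told apart.

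To compare the classes at equal depth, each kept cell with at least 2000 UMIs was thinned at random to 2000 UMIs and classed on the thinned counts. This left in 67.7% and 54.6% of the kept cells of control 1 and 2 and 79.0% and 70.3% of those of CKO 1 and 2. A larger share of the control cells, the shallower ones, was thus left out. Atoh1-positive cells had more Pax6 than Meis2 UMIs, an Atoh1 UMI and no Neurod1 UMI. Neurod1-positive cells had more Pax6 than Meis2 UMIs, a Neurod1 UMI and no Atoh1 UMI. The remaining class had more Meis2 than Pax6 UMIs. In the order control 1, control 2, CKO 1 and CKO 2, used from here on, there were 125, 35, 127 and 241 Atoh1-positive cells, 501, 193, 262 and 643 Neurod1-positive cells and 400, 1236, 403 and 221 Meis2 > Pax6 cells. The class sizes follow depth and the gate as well as the cells present, so they are not compared. The 35 Atoh1-positive cells of control 2 hold 70000 UMIs, which makes it the least precise value of that class.

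Some marker sums differed between the classes, and others overlapped. The 8 granule lineage markers summed to 3551 to 3814 CPM in Atoh1-positive and 4317 to 4710 in Neurod1-positive cells, against 1974 to 3186 in Meis2 > Pax6 cells; 3 of the 8 are gating genes. The 7 markers of excitatory nuclei neurons summed to 2680 to 3261 in Meis2 > Pax6 cells and to at most 505 in the other classes, Meis2 being a gating gene. The 6 mitotic markers (Mki67, Top2a, Cenpf, Ube2c, Cdk1 and Birc5) summed to 1300 to 1957, 764 to 1263 and 252 to 455 in Atoh1-positive, Neurod1-positive and Meis2 > Pax6 cells. In the same order, 5 neuron markers summed to 1892 to 3129, 5487 to 6938 and 5934 to 7824, with the last classes overlapping. The 6 markers of ventricular or glial progenitors summed to 729 to 1799, 759 to 1595 and 367 to 751. Their range in Atoh1-positive cells overlapped those of both other classes. Markers of microglia and of endothelial or mural cells were at 0 or under 6 in every class and library.

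The 39 genes together were most abundant in Atoh1-positive cells. They made up 29.9, 36.6, 27.8 and 28.2 of every 10000 UMIs there, 17.5, 12.8, 13.5 and 16.6 in Neurod1-positive cells and 12.0, 9.60, 9.5 and 10.7 in Meis2 > Pax6 cells. The mean of the 4 libraries was 30.6 ± 4.07, 15.1 ± 2.30 and 10.5 ± 1.17 (SD, n = 4), and every library kept the same order of the classes. Cells with more Pax6 than Meis2 that held UMIs of both Atoh1 and Neurod1 had 24.5 ± 3.46 and those with neither had 22.9 ± 2.04 (SD, n = 4).

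Single cells spread widely within a class. Atoh1-positive cells had a mean of 5.57 to 7.31 UMIs of the 39 genes by library, Neurod1-positive cells 2.56 to 3.51 and Meis2 > Pax6 cells 1.90 to 2.40. Cells with 10 or more of these UMIs made up 17.6% to 37.1%, 4.15% to 8.38% and 1.21% to 1.74%. At least 2 were found in 84.7 ± 4.19%, 58.7 ± 7.02% and 54.5 ± 5.48% of the cells (SD, n = 4), which is a count at 2000 UMIs and no call of S phase. Before thinning the median depth of Meis2 > Pax6 cells was 2831 to 4389 UMIs, and that of Atoh1-positive cells 3169 to 14936. The share with at least 2 UMIs overlapped between Neurod1-positive and Meis2 > Pax6 cells, whereas the share with 10 or more did not overlap between any of the 3 classes.

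**Figure D1:**
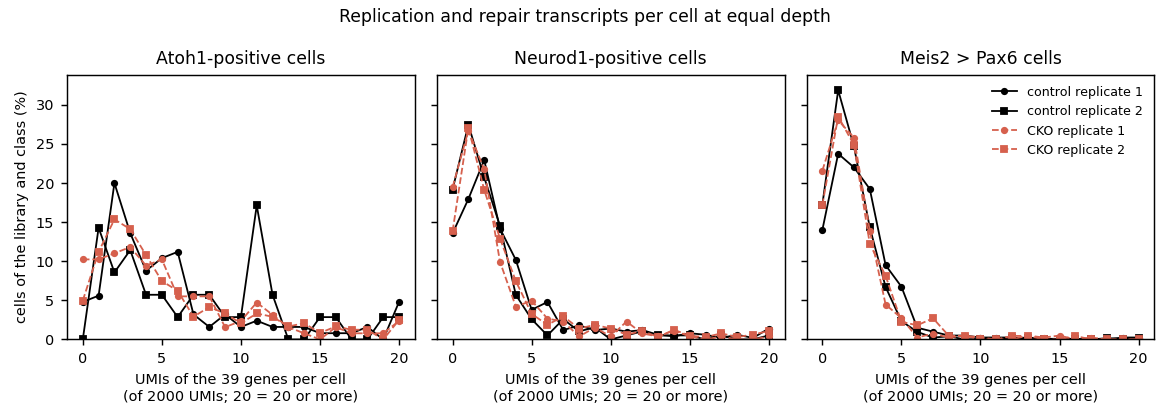
Share of cells (%, vertical axis) by the number of UMIs of the 39 genes in a cell thinned to 2000 UMIs (horizontal axis, the last point being 20 or more), for each library (lines) in the 3 cell classes (panels). The Atoh1-positive lines reach far to the right, with 17.6% to 37.1% of cells at 10 or more, while the Meis2 > Pax6 lines have 1.21% to 1.74% there; the peak of control 2 in the first panel rests on 35 cells.

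Atoh1-positive cells were compared with Neurod1-positive cells of the same library by edgeR's quasi-likelihood test on the summed counts of all genes, with the library as a block and Benjamini-Hochberg adjustment. Of the 39 members, 29 passed the low-count filter. An adjusted p under 0.05 was reached by 23, all higher in Atoh1-positive cells, while of the 6747 genes tested 11.5% (773) were called higher and 855 lower. All 29 had a log2 fold change above 0, as had 52.3% of the genes tested. Their median log2 fold change was 0.89, against 0.02 for all genes tested. Because the members were chosen with earlier results known, the counts of this and the next comparison describe them and are no independent support. Members pass the filter partly through the class where they are high, so the fit without it is the fuller count. It called 23 of 39 members higher, beside 578 of 16938 genes, and all 39 had a log2 fold change above 0. The median in that fit was 0.85 for the members and −0.12 for all genes. Leaving out each library in turn kept 13 of the 23 calls throughout, among them Mcm2 to Mcm7, Pcna and Chaf1b. The others (Dnmt1, Esco2, Pola1, Rfc1, Rfc2, Rfc4, Rpa2, Rrm1, Rrm2 and Slbp) lost the call without at least 1 library, and 16 were called in all without CKO replicate 2.

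Against Meis2 > Pax6 cells 27 members passed the filter and 25 were called, all higher in Atoh1-positive cells. In that comparison 21.8% of the 7147 genes tested (1558) were called higher and 1568 lower. The members' median log2 fold change was 1.81, against 0.01 for all genes tested. All 27 were above 0, as were 50.4% of the genes tested. Without the filter 32 of 39 members were called higher, beside 1458 of 17793 genes, and all 39 were above 0. The median in that fit was 1.73 for the members and −0.26 for all genes. Of the 25 calls, 23 held without each library in turn, and Orc6 and Pola1 did not. Both comparisons use the same Atoh1-positive cells, so their values are given side by side. Levels were scaled anew in each fit, so a level can differ slightly between comparisons, and the Atoh1-positive levels below are those of the first.

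The MCM2-7 proteins form the ring-shaped helicase that unwinds DNA at the fork, and all 6 of their genes were called higher in Atoh1-positive cells in both comparisons. Mcm7 (ENSMUSG00000029730; chromosome 5, 138164583 to 138172422, minus strand, GRCm38) had the highest level of this group, at 321, 266, 163 and 325 CPM in Atoh1-positive cells, 193, 118, 93.6 and 170 in Neurod1-positive cells and 146, 115, 108 and 102 in Meis2 > Pax6 cells. It was higher in Atoh1-positive cells in every library, with log2 fold changes of 0.87 (SE 0.12, adjusted p 8.74e-08, edgeR) and 1.18 (SE 0.17, adjusted p 5.53e-09). These are the smallest of the 6 MCM genes, and the lowest Mcm7 level in Meis2 > Pax6 cells was 102 CPM.

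Mcm5 (ENSMUSG00000005410; chromosome 8, 75109569 to 75128439, plus strand) was at the other end. It stood at 69.7, 140, 111 and 64.5 CPM in Atoh1-positive cells, 26.0, 23.5, 21 and 24.9 in Neurod1-positive cells and 9.80, 10.1, 12.2 and 24.4 in Meis2 > Pax6 cells. Atoh1-positive cells overlapped neither of the other classes, which overlapped each other, and the log2 fold changes were 1.75 (SE 0.25, adjusted p 8.29e-08, edgeR) and 2.80 (SE 0.33, adjusted p 1.23e-11). Mcm6 stood at 186, 350, 163 and 146 CPM in Atoh1-positive cells and 94.3, 44.4, 42.0 and 61.1 in Neurod1-positive cells, and the log2 fold change was 1.49 (SE 0.18, adjusted p 2.42e-09, edgeR). Mcm2, Mcm3 and Mcm4 lay between 1.11 and 1.18 against Neurod1-positive cells and between 1.99 and 2.61 against Meis2 > Pax6 cells. Mcm10, which helps to activate the helicase, was under the filter in both comparisons (20.2 and 6.70 CPM on average in Atoh1-positive and Neurod1-positive cells).

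Licensing and activation genes were scarce. Orc6 was the most abundant of the 4 licensing genes, at 65.8, 42.0, 39.8 and 83.9 CPM in Atoh1-positive cells, 39.5, 36.6, 55.4 and 61.1 in Neurod1-positive cells and 42.9, 45.5, 30.5 and 28.8 in Meis2 > Pax6 cells. The first 2 classes overlapped, and the log2 fold change was 0.33 (95% interval −0.13 to 0.80, adjusted p 0.323, edgeR). Against Meis2 > Pax6 cells it was 0.77 (SE 0.26, adjusted p 0.0131), and 0.40 without CKO replicate 2, where the call was lost. Cdt1, which loads MCM, had a log2 fold change of 0.92 against Neurod1-positive cells (SE 0.36) and an adjusted p of 0.0542. Cdc6 and Orc1, further loading factors, were under the filter, with 18 and 3 UMIs over all Atoh1-positive cells.

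Of Cdc45 and the GINS genes, which complete the active helicase, only Gins2 passed the filter in either comparison. It stood at 38.7, 56.1, 47.7 and 40.9 CPM in Atoh1-positive cells, 33.7, 20.9, 34.4 and 25.7 in Neurod1-positive cells and 35.5, 24.4, 20.8 and 44.3 in Meis2 > Pax6 cells. Its log2 fold changes of 0.55 (95% interval −0.01 to 1.10, adjusted p 0.154, edgeR) and 0.45 (−0.18 to 1.08, adjusted p 0.253) did not pass. Gins1, Gins3 and Cdc45 had 19, 10 and 17 UMIs over all Atoh1-positive cells. Without the filter, none of these 4 genes was called against Neurod1-positive cells, and Cdc45 was called against Meis2 > Pax6 cells.

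Among the polymerases, Pola2 (the B subunit of DNA polymerase alpha, which starts each strand with primase) stood at 46.5, 56.1, 31.8 and 36.6 CPM in Atoh1-positive cells, 22.1, 7.83, 13.4 and 16.1 in Neurod1-positive cells and 14.7, 13.1, 9.77 and 22.1 in Meis2 > Pax6 cells. No library of Atoh1-positive cells overlapped either class, with log2 fold changes of 1.27 (SE 0.33, adjusted p 0.0023, edgeR) and 1.46 (SE 0.38, adjusted p 0.00102). The first fell to 0.34 with another random thinning, where the call was lost. Pola1, its catalytic subunit, was called in both comparisons (1.09 and 1.06). Prim1, the catalytic primase subunit, was not called against Neurod1-positive cells (0.63, adjusted p 0.159), Pold1, the catalytic subunit of polymerase delta, was tested and called against Meis2 > Pax6 cells (1.81), and Pole, that of polymerase epsilon, was under the filter in both.

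The sliding clamp gene Pcna (ENSMUSG00000027342; chromosome 2, 132249162 to 132253314, minus strand) stood at 128, 280, 203 and 189 CPM in Atoh1-positive cells, 115, 73.1, 78.4 and 105 in Neurod1-positive cells and 67.4, 49.7, 52.5 and 39.9 in Meis2 > Pax6 cells. The levels fell from class to class in every library, and the log2 fold changes were 0.89 (SE 0.16, adjusted p 2.03e-05, edgeR) and 1.85 (SE 0.21, adjusted p 2.5e-12). Rfc1 to Rfc5 encode the loader that opens the clamp. Rfc1, Rfc2, Rfc3 and Rfc4 were called in both comparisons, at 0.62 to 0.91 and 0.94 to 1.42, and Rfc5 was under the filter. Rfc4 had 0 UMIs in the Atoh1-positive cells of control 2, where 0 of 35 cells allows a share of up to 8.57% of cells with a captured UMI, which is no limit on cells that express the gene, and Rfc1 there lay below the Neurod1-positive cells (56.1 against 57.4 CPM).

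**Figure D2:**
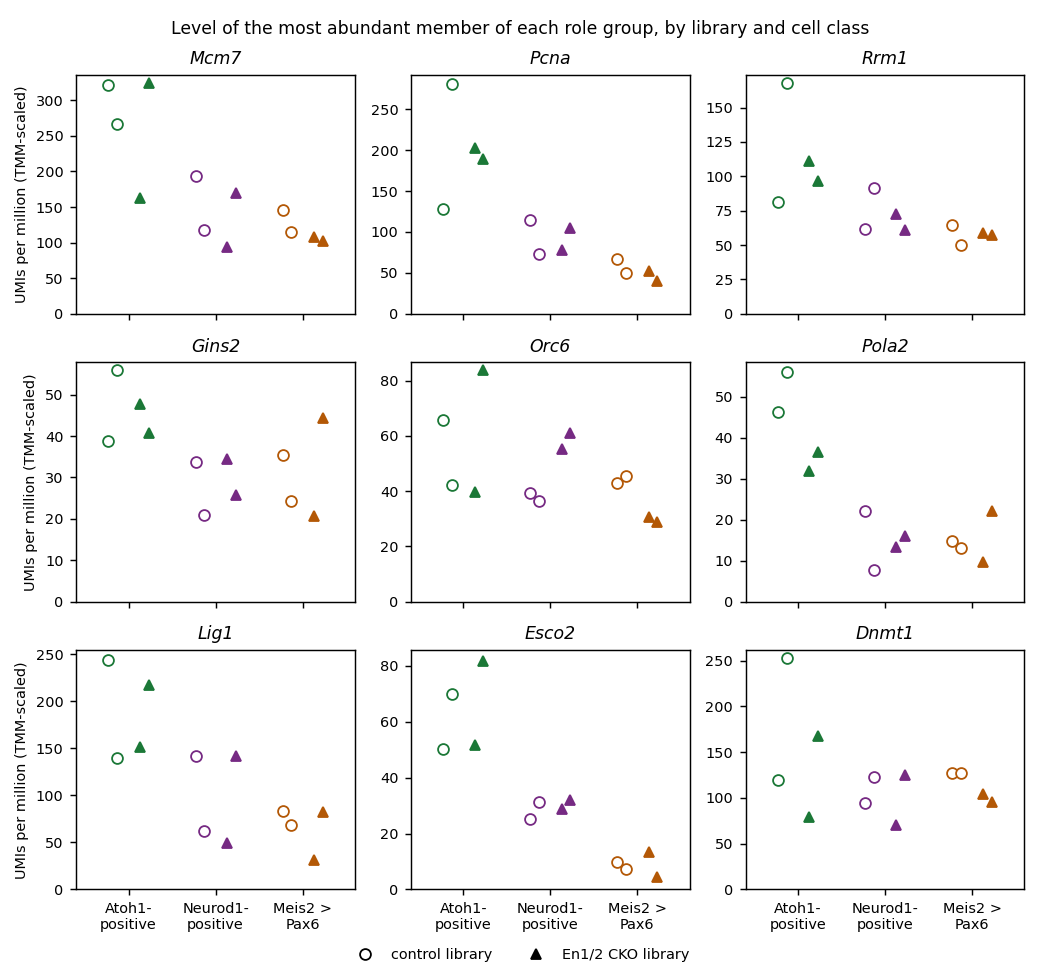
CPM (vertical axes, scaled by TMM factors) of the most abundant member of each of 9 role groups in the 3 cell classes, for each control library (open circles) and CKO library (filled triangles). Mcm7, Pcna, Rrm1, Pola2, Lig1 and Esco2 are highest in the Atoh1-positive cells of every library, for example Pcna at 128 to 280 against 39.9 to 67.4 in Meis2 > Pax6 cells. Over all libraries the ranges of Mcm7, Rrm1 and Lig1 still overlap between Atoh1-positive and Neurod1-positive cells. Dnmt1, Gins2 and Orc6 are not highest in the Atoh1-positive cells of every library.

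Rpa2 coats single-stranded DNA, and Fen1 and Lig1 trim and join Okazaki fragments. Lig1 stood at 244, 140, 151 and 217 CPM in Atoh1-positive cells, 142, 62.7, 49.7 and 141 in Neurod1-positive cells and 83.3, 68.6, 31.8 and 81.9 in Meis2 > Pax6 cells. Each library had the highest level in its Atoh1-positive cells, with log2 fold changes of 0.85 (SE 0.15, adjusted p 7.4e-06, edgeR) and 1.58 (SE 0.19, adjusted p 3.46e-11). Rpa2 was called in both comparisons, at 1.31 and 2.57. Fen1 was not called against Neurod1-positive cells (0.64, adjusted p 0.141) and was under the filter in the other comparison.

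Of the nucleotide supply genes, Rrm1 (the large subunit of ribonucleotide reductase) stood at 81.3, 168, 111 and 96.8 CPM in Atoh1-positive cells, 61.6, 91.4, 72.6 and 61.1 in Neurod1-positive cells and 64.9, 50.1, 58.6 and 57.6 in Meis2 > Pax6 cells. It was called in both comparisons, at 0.62 (SE 0.19, adjusted p 0.0111, edgeR) and 0.86 (SE 0.22, adjusted p 0.000997), and lost the first call without CKO replicate 1 (0.59) or CKO replicate 2 (0.56). Rrm2, the small subunit that is made in S phase, and Tyms, thymidylate synthase, had log2 fold changes of 0.66 and 0.85 against Neurod1-positive cells and of 2.22 and 1.81 against Meis2 > Pax6 cells. On the level scale Rrm2 averaged 23.4 and Rrm1 57.8 CPM in that class, while in Atoh1-positive cells of the same fit they averaged 109 and 115. The difference between the genes was not tested.

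Chromatin and methylation genes ranged from 0.45 to 1.73 against Neurod1-positive cells and from 0.34 to 2.86 against Meis2 > Pax6 cells. Chaf1b stood at 31.0, 70.1, 79.5 and 30.1 CPM in Atoh1-positive cells and 17.3, 5.22, 9.56 and 13.7 in Neurod1-positive cells, and at 6.64 to 7.35 in Meis2 > Pax6 cells. Atoh1-positive cells overlapped neither class, and the log2 fold changes were 1.73 (SE 0.35, adjusted p 0.000107, edgeR) and 2.86 (SE 0.42, adjusted p 1.8e-08), from 47 UMIs in Atoh1-positive cells. Uhrf1, which recruits Dnmt1 to hemimethylated DNA, was called in both (1.00 and 2.25), as was Slbp, which binds the stem-loop of histone mRNA (0.58 and 1.43).

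Dnmt1 (ENSMUSG00000004099; chromosome 9, 20907209 to 20959888, minus strand) differed little. It stood at 120, 252, 79.5 and 168 CPM in Atoh1-positive cells, 94.3, 123, 70.7 and 125 in Neurod1-positive cells and 127, 127, 104 and 95.2 in Meis2 > Pax6 cells. The log2 fold change against Neurod1-positive cells, 0.45 (SE 0.16, adjusted p 0.0321, edgeR), was called here but ranged from 0.37 without control replicate 2 to 0.48 without control replicate 1, and the call was lost without any of the 4 libraries. Against Meis2 > Pax6 cells it was 0.34 (95% interval −0.05 to 0.72, adjusted p 0.152), with Atoh1-positive cells higher in 2 of 4 libraries. That call appeared with another random thinning (0.62), which changes which cells fall in each class as well as the UMIs drawn. With Mcm7, Dnmt1 was the most abundant member in Meis2 > Pax6 cells (mean 113 CPM, against 118 for Mcm7).

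Of the repair and cohesion genes, Esco2 (the acetyltransferase that fixes cohesin on sister chromatids during S phase) stood at 50.3, 70.1, 51.7 and 81.7 CPM in Atoh1-positive cells, 25.0, 31.3, 28.7 and 32.2 in Neurod1-positive cells and 9.80, 7.16, 13.4 and 4.43 in Meis2 > Pax6 cells. No class overlapped another, and the log2 fold changes were 1.15 (SE 0.24, adjusted p 0.000203, edgeR) and 2.74 (SE 0.37, adjusted p 1.44e-09). The first was 0.94 without CKO replicate 2, where the call was lost. Brca1, of homologous recombination, was called against Meis2 > Pax6 cells (2.48) and not against Neurod1-positive cells (0.74, adjusted p 0.0965). Ung, which removes uracil from DNA, was under the filter in both.

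**Figure D3:**
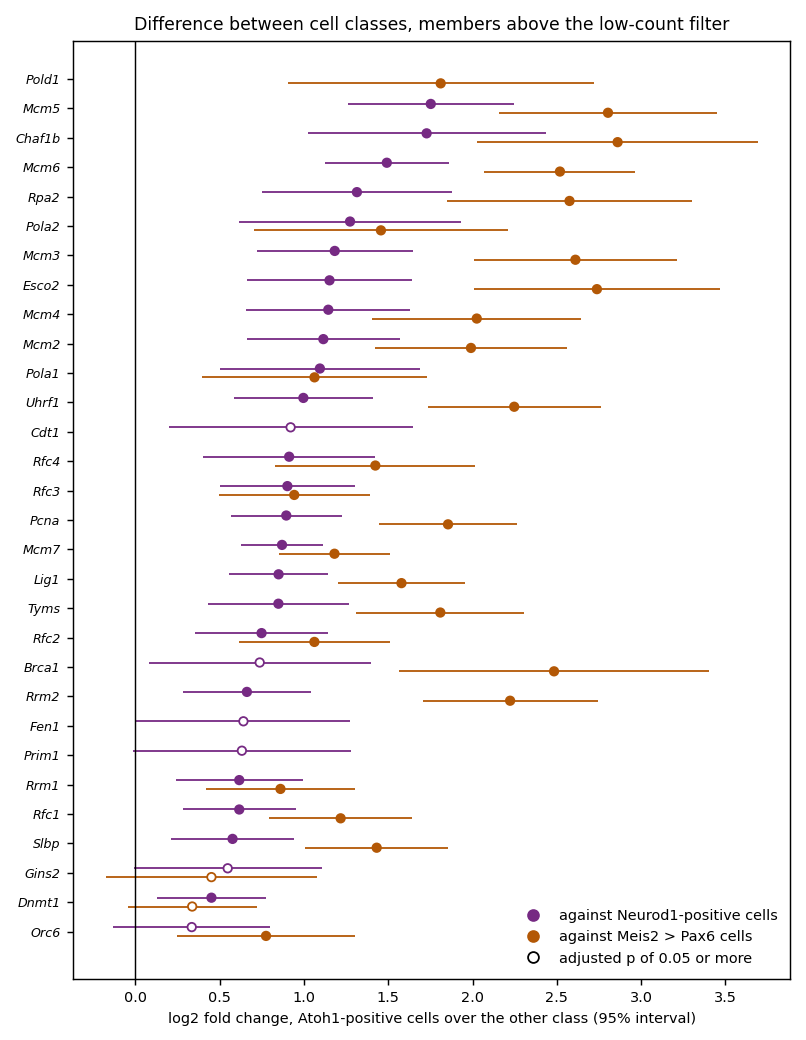
Log2 fold change (horizontal axis) of Atoh1-positive over Neurod1-positive cells (purple) and over Meis2 > Pax6 cells (orange) for each member above the low-count filter, with 95% intervals; open points have an adjusted p of 0.05 or more. All points lie above 0, from 0.33 (Orc6) to 1.75 (Mcm5) in the first comparison and from 0.34 (Dnmt1) to 2.86 (Chaf1b) in the second.

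The other genes of these pathways, a list of 80 that holds no member, were read in the same fits. Against Neurod1-positive cells 48 passed the filter, 23 were called higher in Atoh1-positive cells and 0 lower, with a median log2 fold change of 0.55. Among those called were Wee1, a kinase that holds back mitosis (1.55), Chaf1a, the large subunit of CAF-1 (1.31), and Neil3, a DNA glycosylase (1.28). Against Meis2 > Pax6 cells 35 of 48 tested were called higher, led by Neil3 (3.52), the checkpoint mediator Clspn (3.14), the exonuclease Exo1 (3.07) and Wee1 (2.93). Orc4, a subunit of the origin recognition complex, was called lower there (−0.74, SE 0.24, adjusted p 0.00924, edgeR).

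Mitotic transcripts overlapped with the members to different degrees in Atoh1-positive cells. A cell was counted as holding mitotic RNA when at least 1 UMI of the 6 mitotic markers was present. This was so for 50.4%, 54.3%, 60.6% and 54.8% of the cells, or 55.0 ± 4.22% (SD, n = 4). Of Neurod1-positive and Meis2 > Pax6 cells 39.2 ± 3.96% and 26.6 ± 3.27% met the same mark (SD, n = 4 each), so it is no call of mitosis. For each member with at least 20 UMIs, 34 in all, the share of its Atoh1-positive UMIs lying in marked cells was then taken. These shares are a description, since cells of 1 library are not replicates.

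Mcm2 had the lowest share, at 29.4%, 28.6%, 40.9% and 39%, below the share of the cells themselves in every library. It was followed by Prim1 (40.9 ± 28.0%), Mcm4 (48.6 ± 12.4%) and Mcm3 (52.9 ± 3.30%; SD, n = 4 each). Esco2 had the highest share, 96.2 ± 4.44%, followed by Brca1 (85.5 ± 10.3%), Rrm2 (85.2 ± 2.63%), Pold1 (84.6 ± 14.1%) and Mcm10 (84.2 ± 14.2%; SD, n = 4 each). Pold1 and Mcm10 rest on 30 and 20 UMIs. In all 4 libraries 13 of the 34 members lay above the share of the cells. Rfc4 and Rfc5 had no UMI in the Atoh1-positive cells of control 2 and so could not be among them. The same count was not made over all genes, so 13 of 34 is a description only. Rrm1, whose product pairs with that of Rrm2, was at 69.0 ± 12.3% (SD, n = 4), and the ranges of these genes over the libraries overlapped.

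**Figure D4:**
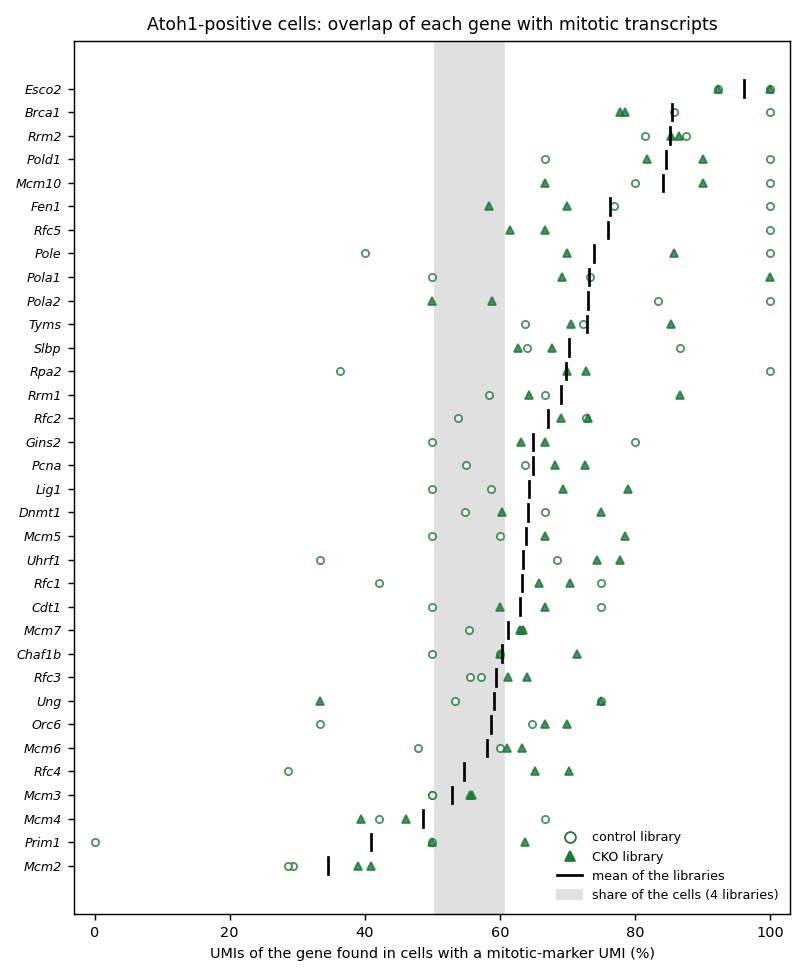
Share of each member's UMIs (%, horizontal axis) that lie in Atoh1-positive cells with a mitotic-marker UMI, per control library (open circles) and CKO library (filled triangles), with the mean as a black bar; the grey band is the share of the cells themselves (50.4% to 60.6%). Mcm2 is left of the band in every library (28.6% to 40.9%), and Esco2 is far to the right (mean 96.2%).

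En1/2 CKO cells were compared with control cells within each class by the same edgeR test without a block, to ask whether the deletion changed any of these genes. No member was called in any class. In Atoh1-positive cells 0 of the 29 members tested were called, beside 0% of the 4985 genes tested. At an unadjusted p under 0.05 there were 2 members and 403 genes (8.08%). In Neurod1-positive cells 0 of 31 were called, beside 0.127% of 8657 genes (11), with 1 member and 1143 genes (13.2%) at an unadjusted p under 0.05. In Meis2 > Pax6 cells 0 of 23 were called, beside 0.135% of 8899 genes (12), with 0 members and 597 genes (6.71%) at an unadjusted p under 0.05. DESeq2 called 0 of the 29 members in Atoh1-positive cells and 0 of the 13 members to which it gave an adjusted p in Meis2 > Pax6 cells. In Neurod1-positive cells it gave none of the 31 members an adjusted p, so it says nothing about them there. The members' median log2 fold changes were −0.05, 0.02 and −0.04, and those of all genes tested −0.00189, −0.00364 and 0.00283.

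The precision of these fits limits what they can show. The median standard error of a member's log2 fold change was 0.42 in Atoh1-positive, 0.33 in Neurod1-positive and 0.34 in Meis2 > Pax6 cells, and the median bounds of its 95% interval in Atoh1-positive cells were −0.96 and 0.83. Mcm10, Gins1, Gins3, Cdc6, Cdc45, Orc1, Pold1, Pole, Rfc5 and Brca1 were under the filter in Atoh1-positive cells, with 3 to 36 UMIs each. Several marker sums split by genotype without overlap. Those of ventricular or glial progenitors did so in all 3 classes: their 6 genes summed to 992 and 729 CPM in Atoh1-positive control cells and to 1799 and 1232 in CKO cells. In Neurod1-positive cells they were 937 and 759 in control and 1595 and 1152 in CKO cells, and in Meis2 > Pax6 cells 478 and 367 against 751 and 520. Granule lineage markers summed to 1974 and 1987 CPM in control and 2795 and 3186 in CKO cells of the Meis2 > Pax6 class, and were lower in CKO cells of the other classes (3656 and 3814 against 3551 and 3579 in Atoh1-positive cells, 4710 and 4562 against 4317 and 4525 in Neurod1-positive cells). Mitotic markers summed to 932 and 764 in control and 1263 and 947 in CKO cells of the Neurod1-positive class. GABAergic markers were lower in CKO cells in Atoh1-positive (36.0 and 28.6 against 0 and 15) and Neurod1-positive cells (60.9 and 67.4 against 17.2 and 27.2). Erythroid markers were lower in CKO cells in all 3 classes and by far the highest in control 2. They summed to 20 and 214 in Atoh1-positive control cells and to 3.94 and 0 in CKO cells. In Neurod1-positive cells they were 35.9 and 1321 against 7.63 and 2.33, and in Meis2 > Pax6 cells 33.8 and 1124 against 17.4 and 4.52. The part of these markers in the members' values was not tested.

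In Atoh1-positive cells the members summed to 33.2 ± 4.73 per 10000 control UMIs and 28.0 ± 0.25 per 10000 CKO UMIs (SD, n = 2 each). The CKO libraries lay below the controls, by less than the 2 controls differed from each other, and control 2 has 35 cells. Groups that did not overlap were found for 6 members lower in CKO cells (Mcm4, Mcm6, Cdt1, Pola2, Rpa2 and Ung) and 1 higher (Rfc4) of the 29, against 20.2% and 21.3% of all genes tested.

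Ung had the lowest log2 fold change, with 58.5 and 55.8 CPM in control and 15.9 and 19.4 in CKO cells, or 15, 4, 4 and 9 UMIs. Its log2 fold change was −1.65 (SE 0.53, 95% interval −2.77 to −0.53) with an adjusted p of 0.608 by edgeR. It was −0.63 with another random thinning and −0.08 when cells were thinned to 3000 UMIs. Both settings change which cells fall in the class as well as the UMIs drawn, and the part of each was not tested. Rpa2 stood at 85.8, 83.8, 39.7 and 47.5 CPM (log2 fold change −0.93, SE 0.42, adjusted p 0.608, edgeR). Cdt1 stood at 39, 55.8, 19.9 and 25.9 (−0.87, SE 0.55, adjusted p 0.688). Both had CKO libraries below the controls, on 22 UMIs or fewer per library.

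The highest values were those of Prim1, Rfc4 and Esco2. Prim1 stood at 11.7, 55.8, 47.7 and 47.5 CPM, with the controls on both sides of the CKO libraries (log2 fold change 1.08, SE 0.64, adjusted p 0.665, edgeR). Leaving out 1 library moved Prim1 from −0.16 (without control replicate 1) to 2.01 (without control replicate 2). Rfc4 stood at 54.6, 0, 91.4 and 79.8, and its log2 fold change of 1.05 (SE 0.55, adjusted p 0.608) includes the control with 0 UMIs, so no fold is drawn from it. Esco2 stood at 50.7, 69.8, 51.6 and 82.0, with overlapping groups (0.31, SE 0.46, adjusted p 0.909). Of the most abundant members, Mcm7 had −0.27 (95% interval −0.96 to 0.42), Pcna 0.14 (−0.60 to 0.88), Rrm1 −0.05 (−0.90 to 0.79), Lig1 −0.16 (−0.85 to 0.52) and Dnmt1 −0.32 (−1.20 to 0.56), none passing the test. With 1 library left out each of these 5 took both signs: Mcm7 ran from −0.88 to 0.13, Pcna from −0.45 to 0.62, Rrm1 from −0.63 to 0.35, Lig1 from −0.46 to 0.49 and Dnmt1 from −0.99 to 0.12.

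In Neurod1-positive cells the members summed to 15.2 ± 3.35 per 10000 control UMIs and 15.0 ± 2.16 per 10000 CKO UMIs (SD, n = 2 each). CKO libraries lay above the controls for 6 of 31 members (Gins1, Orc6, Pola1, Prim1, Rfc2 and Rpa2), against 23.3% of all genes, and below for none, against 20.8%. Orc6 stood at 39 and 36.2 CPM in control and 55.7 and 61.7 in CKO cells (log2 fold change 0.64, SE 0.28, adjusted p 0.347, edgeR). Prim1 stood at 21.9, 5.18, 36.5 and 24.4 (0.78, SE 0.47, adjusted p 0.52). Pola1 stood at 18.1, 15.5, 19.2 and 27.6 (0.50, SE 0.41, adjusted p 0.646).

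The lowest values there were those of Cdt1, Mcm6 and Mcm3, whose groups overlapped. Cdt1 stood at 25.7, 7.75, 13.4 and 13.0 CPM (−0.59, SE 0.51, adjusted p 0.677, edgeR). Mcm6 stood at 93.3, 43.9, 42.3 and 61.7 (−0.46, SE 0.33, adjusted p 0.595), where control 1 is high and the other libraries are close together. Mcm3 stood at 45.7, 28.4, 23.1 and 40.6 (−0.22, SE 0.35, adjusted p 0.842).

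In Meis2 > Pax6 cells the members summed to 10.8 ± 1.69 per 10000 control UMIs and 10.1 ± 0.88 per 10000 CKO UMIs (SD, n = 2 each). CKO libraries lay below the controls for 5 of 23 members (Mcm7, Rrm2, Orc6, Fen1 and Dnmt1), against 17.8% of all genes, and above for none, against 17.1%. Rrm2 stood at 34.3, 23.7, 13.6 and 22.3 CPM (−0.70, SE 0.41, adjusted p 0.881, edgeR). Orc6 stood at 42.8, 45.6, 30.8 and 29.0 (−0.56, SE 0.30, adjusted p 0.827). Lig1 stood at 83.2, 68.9, 32.0 and 82.4 (−0.50, SE 0.34, adjusted p 0.934), where CKO 1 is low and CKO 2 is among the controls. Without CKO replicate 2, Lig1 was called lower, at −1.22 and an adjusted p of 0.0245, the only call of a member in any alternative of the CKO comparisons. That fit has 1 CKO library, CKO 1, which is assumed to vary as the controls do.

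The highest values in that class were those of Mcm2, Rfc5 and Pola1. Mcm2 stood at 22, 12.2, 21 and 26.7 CPM (0.57, SE 0.44, adjusted p 0.946, edgeR). Rfc5 stood at 17.1, 7.18, 19.7 and 8.91 (0.54, SE 0.58, adjusted p 0.97) and Pola1 at 24.5, 13.9, 23.4 and 17.8 (0.26, SE 0.44, adjusted p 0.985). The groups of all 3 overlapped.

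**Figure D5:**
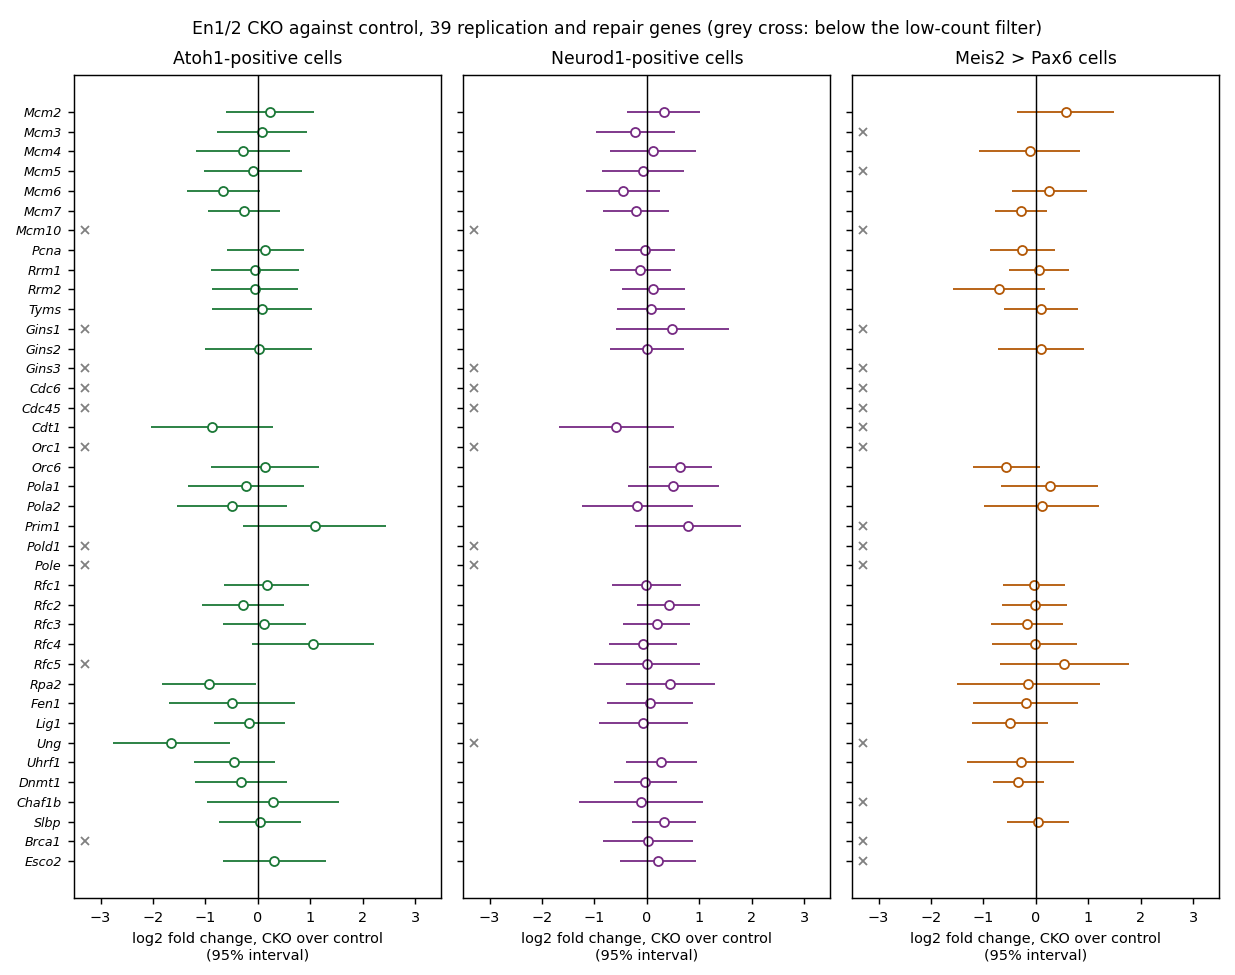
Log2 fold change (horizontal axis) of En1/2 CKO over control cells for each member (rows) in the 3 cell classes (panels), with 95% intervals; a grey cross marks a member below the low-count filter. No member passed the test, and the intervals of all but Ung and Rpa2 in Atoh1-positive and Orc6 in Neurod1-positive cells hold 0.

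Whether the CKO effect differed between the classes was tested by an interaction term. Between Atoh1-positive and Neurod1-positive cells 0 of 34 members were called, beside 0% of 7874 genes, with 2 members (Rfc4 and Rpa2) and 314 genes (3.99%) at an unadjusted p under 0.05; DESeq2 called no gene. Rpa2 gave −1.31 (SE 0.53, adjusted p 0.998, edgeR). The same term against Meis2 > Pax6 cells, added after these values were seen, called 0 of 34 members for Atoh1-positive cells (beside 0.0242% of 8275 genes) and 0 of 32 for Neurod1-positive cells (beside 0.114% of 9635 genes). At an unadjusted p under 0.05 there were 2 members (Rfc4 at 1.36 and Mcm6 at −0.88) and 407 genes for Atoh1-positive cells. For Neurod1-positive cells there were 3 members (Orc6, Prim1 and Rrm2) and 791 genes. Orc6, with CKO libraries above the controls in Neurod1-positive and below them in Meis2 > Pax6 cells, gave 1.21 (SE 0.41, 95% interval 0.40 to 2.01) with an adjusted p of 0.289 by edgeR. Prim1 gave 1.81 (SE 0.70, 95% interval 0.43 to 3.19, adjusted p 0.411, edgeR) and Rrm2 0.90 (SE 0.45, adjusted p 0.597, edgeR).

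The 80 other genes of these pathways were read in the CKO comparisons too. None of the 42, 59 and 46 tested in Atoh1-positive, Neurod1-positive and Meis2 > Pax6 cells was called, and 2, 2 and 3 were at an unadjusted p under 0.05. In Neurod1-positive cells these were Usp1, a deubiquitinase of the Fanconi pathway (1.04), and Dut, which removes dUTP (0.75). Of these 7 values the lowest adjusted p was that of Usp1 (0.221, edgeR). In Meis2 > Pax6 cells E2f1, an E2F factor, was at 1.02 on the log2 scale (SE 0.29, adjusted p 0.318, edgeR). These genes were named after their values were seen.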

How the data were processed

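The deposited matrices hold raw UMI counts per gene and cell, which the authors made with Cell Ranger 5.0.0 per the file headers, on mm10 per the submitters' processing notes. No value had been normalized. The 39 members and all gene lists were chosen with earlier results of these data known.

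Kept cells with 2000 or more UMIs were thinned to that depth without replacement and classed by Pax6, Meis2, Atoh1 and Neurod1, and these 4 gating genes were left out of every test. Counts were summed per library and class and tested with edgeR 4.0.16 (R 4.3.3; TMM scaling, filterByExpr, quasi-likelihood F test, two-sided, Benjamini-Hochberg adjustment over all genes tested, threshold 0.05). Class comparisons had the library as a block, and CKO comparisons did not. DESeq2 1.42.0 was an alternative. The tests were checked on simulated counts, with changes placed in genes drawn from all those tested. In the CKO fits 7%, 31% and 36% of 2-fold changes were called in Atoh1-positive, Neurod1-positive and Meis2 > Pax6 cells. Of 4-fold changes 72%, 90% and 90% were called. In the comparison of Atoh1-positive with Neurod1-positive cells the shares were 82% and 95%. Each simulation held 100 genes with 2-fold and 100 with 4-fold changes at once, and its spread followed the trend over all genes. The simulated CKO fits made 82, 128 and 133 calls, against 0, 11 and 12 in the data. Many calls loosen the adjustment, so the shares of the CKO fits may overstate what the real fits could call. Values in every library are given for the most abundant member of each of the 9 roles in Atoh1-positive cells, the 3 highest and 3 lowest log2 fold changes of each CKO comparison, and members called there; up to 4 called genes of the other list are named, of which 1 is not reported here. Mcm5, Mcm6, Chaf1b and other members or genes named beyond this were chosen after their values were seen. Doublets were scored by simulation and left out only as an alternative. The 95% intervals of log2 fold changes come from the edgeR fits and hold the spread between libraries, whereas the limit given for a count of 0 covers counting error only. Other alternatives changed the depth, seed, filter, scaling, mitochondrial limit, class rule and libraries.

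The replicate numbers name libraries only: the labels mention 2 replicate experiments without saying which libraries share one.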

Additional observations from a re-analysis of the deposited data

How the results depend on the processing

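In the comparison of Atoh1-positive with Neurod1-positive cells, 23 members were called, against 4 at 1000 UMIs per cell, 38 without thinning, 14 with at most 5% mitochondrial UMIs and 16 to 22 with a library left out. Against Meis2 > Pax6 cells 25 were called, against 9 at 1000 UMIs, 38 without thinning and 25 to 27 with a library left out. Fewer genes pass the filter at 1000 UMIs, and without thinning the classes differ in depth. Without the library as a block the counts were 16 and 25, and with DESeq2 16 and 23. With all Pax6 > Meis2 cells without a Neurod1 UMI in place of Atoh1-positive cells, a class chosen after seeing the data, they were 29 and 33. The share of cells with at least 2 member UMIs was 59.6%, 36.5% and 26.6% in Atoh1-positive, Neurod1-positive and Meis2 > Pax6 cells at 1000 UMIs and 91.2%, 74.2% and 72.5% at 3000 UMIs, and 79.6% in Atoh1-positive cells with the double-positive cells added.

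In the CKO comparisons the member count stayed at 0 in every alternative except that in Meis2 > Pax6 cells without CKO replicate 2, which called 1 (range 0 to 1 over the libraries left out). Leaving out a library leaves 1 in its group, which is then assumed to vary as the other group does. DESeq2 gave an adjusted p to 0 of 31 members in Neurod1-positive and 13 of 23 in Meis2 > Pax6 cells, so its count of 0 there rests on few or none. Single values were less stable: for the 40 CKO values of named members, the sign was opposite in 106 of 563 alternatives, with no call. A replicate block left 0 members called in each of the 3 classes and in the interaction. Same-numbered libraries correlated at −0.066, −0.160 and −0.195 in their deviations from the group means. With 2 libraries per group the opposite pairing gives the same values with the other sign, so they cannot show whether the numbers mark pairs. The numbers were not used as pairs because the labels do not say what they mark.

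Counts over all genes moved more. In Atoh1-positive cells 0 genes were called, against 7 without the filter, 10 without thinning, 9 with the double-positive cells added, 3 at 3000 UMIs, 1 at 1000 UMIs or with another seed, and 3 to 45 with a library left out. In Neurod1-positive cells 11 became 119 with DESeq2 (of 433 genes with an adjusted p), 184 without the filter, 24 with library totals, 22 at 3000 UMIs, 5 without thinning, 3 with another seed, 1 at 1000 UMIs or with a replicate block, 0 with at most 5% mitochondrial UMIs and 32 to 127 with a library left out. In Meis2 > Pax6 cells 12 became 152 at 3000 UMIs, 75 without the filter, 39 with a replicate block, 25 without thinning, 6 with library totals or another seed, 5 without cells holding an Atoh1 UMI, 2 with at most 5% mitochondrial UMIs and 24 to 185 with a library left out. The 1628 and 3126 genes of the class comparisons became 756 and 1992 with DESeq2, 356 and 1163 at 1000 UMIs, 5481 and 6280 without thinning, and 1059 and 2015 with at most 5% mitochondrial UMIs; the first became 629 without the block. The cause of these shifts was not tested.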
